A study of Mus musculus with 6 samples.

Results

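The 7 transcription factor genes Runx1, Tal1, Lmo2, Lyl1, Erg, Fli1 and Gata2, known together as the stem cell heptad, were taken by symbol from the deposited table of 22381 genes, and all 7 were found, each on 1 line. The cells were LSK cells, the lineage-negative, Sca-1-positive, c-Kit-positive part of bone marrow that holds blood-forming stem cells and multipotent progenitors. The 6 samples came from C57BL/6 mice of 8 to 12 weeks, 3 labelled Tgif1-/- and 3 labelled WT, with no other allele or treatment named. Tgif1 is a homeodomain repressor, and the labels do not say which part of it was removed or whether separate animals gave the samples of a group. The table holds 1 FPKM value (fragments scaled to transcript length and to the mapped total) for each group and none for a single sample.

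The heptad factors bind shared enhancers in blood stem and progenitor cells, their own included, and several are required for blood formation in the mouse embryo. They belong to several DNA-binding families. Tal1 and Lyl1 are basic helix-loop-helix proteins that pair with E proteins at E-box sequences, Gata2 is a zinc finger protein of GATA sites, Erg and Fli1 are Ets proteins of GGAA sites, Runx1 binds with its partner Cbfb, and Lmo2 is a LIM-domain bridge that joins the helix-loop-helix and GATA proteins through Ldb1 without touching DNA itself.

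Promoter windows are shown because these factors are known to act on one another's genes. RefSeq windows on GRCm38.p6, each from 250 bases before to 50 bases after a start site, were at hand for 5 of the 7 genes (Erg, Gata2, Lyl1, Runx1 and Tal1, 10 windows). They were searched on both strands for AGATAA or TGATAA (sites of GATA factors), GGAAG (sites of Ets factors), TGTGGT (sites of Runx factors) and CANNTG (the E-box of helix-loop-helix proteins). The 250 bases before 1 start of Erg, the distal start of Runx1 and the upstream start of Gata2 are given 5′ to 3′ on the gene's strand, with motif matches in capitals. Erg and Runx1 have the windows with the most kinds of match, and Gata2 is the member with the widest gap between the groups. The last line is the transcribed stretch of Runx1 that holds its TGTGGT matches, read on the other strand as ACCACA.
Erg chr16:95459349-95459598, minus strand: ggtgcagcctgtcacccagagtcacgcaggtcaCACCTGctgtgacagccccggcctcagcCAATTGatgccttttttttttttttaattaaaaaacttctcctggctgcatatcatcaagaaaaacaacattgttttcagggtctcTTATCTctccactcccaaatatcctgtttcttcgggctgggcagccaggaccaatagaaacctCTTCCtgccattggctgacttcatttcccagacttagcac
Runx1 chr16:92826075-92826324, minus strand: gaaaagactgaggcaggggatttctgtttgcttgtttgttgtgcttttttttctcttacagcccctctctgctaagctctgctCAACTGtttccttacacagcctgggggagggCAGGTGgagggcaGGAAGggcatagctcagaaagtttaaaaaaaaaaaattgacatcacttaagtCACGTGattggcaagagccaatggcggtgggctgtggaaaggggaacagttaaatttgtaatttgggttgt
Gata2 chr6:88193641-88193890, plus strand: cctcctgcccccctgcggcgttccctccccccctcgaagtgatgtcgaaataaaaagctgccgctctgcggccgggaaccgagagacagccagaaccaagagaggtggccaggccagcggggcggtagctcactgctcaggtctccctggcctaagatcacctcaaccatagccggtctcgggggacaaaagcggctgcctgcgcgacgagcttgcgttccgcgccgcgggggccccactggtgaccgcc
Runx1 chr16:92826028-92826050, minus strand: aacaACCACAgaACCACAagttg

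The Erg window shown held matches for 3 of the 4 kinds, 1 GATA match, 1 Ets match and 2 E-boxes. The distal Runx1 window also held 3 kinds, with 1 Ets match, 3 E-boxes and 2 TGTGGT matches that lie 29 and 37 bases past the start. These windows were picked for their matches. Another Erg window held an Ets match alone, and a further Erg window and the proximal Runx1 window held none. The upstream Gata2 window, 69.3% G and C, held none, and the other Gata2 window held 1 E-box, 18 bases past the start. Matches of different kinds did not overlap in these windows. Across the 10 windows, 2 held a GATA match, 5 an Ets match, 1 a Runx match and 5 an E-box, against 18.6%, 71.4%, 16.8% and 72.3% of all 32851 windows of that length. No window of these 5 genes held all 4 kinds, which 1.86% of all windows did. A match describes letters only, many known heptad enhancers lie far from start sites, and the table does not say which start site was used.

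None of the 7 members was called, that is, tested with a deposited Cuffdiff q at or under 0.05. The share called over all 10730 tested genes was 0.662%, 71 genes. Cuffdiff completed its test for Erg and Fli1 alone. It marked Runx1, Tal1, Lmo2, Lyl1 and Gata2 as failed, so these 5 have levels with no error and no p-value, and a difference in them could not have been called. Among the 12452 genes at 1 FPKM or more in a group, 24.2% failed, and among genes within 1.5-fold of a member's level the share ran from 32.6% to 37.1%. At the deposited p under 0.05 without adjustment, Erg was lower in the Tgif1-/- group, as were 3.55% of all tested genes. Neither of the 2 tested members was higher at that p, as were 1.85% of tested genes.

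Each of the 7 genes was expressed well above the middle of the expressed genes in both groups, from percentile 73.5 for Tal1 to percentile 97.6 for Lmo2 by mean level over both groups. Together the 7 levels summed to 829 FPKM in the Tgif1-/- group and 837 FPKM in the WT group. Lmo2 alone made up 50.9% of that sum in the Tgif1-/- group and 51.4% in the WT group. The other 6 members summed to 407.0 FPKM in each group and spanned 2.01-fold in the Tgif1-/- group and 2.24-fold in the WT group. In descending order the levels ran Lmo2, Fli1, Erg, Runx1, Gata2, Lyl1 and Tal1 in the Tgif1-/- group. In the WT group they ran Lmo2, Erg, Fli1, Runx1, Lyl1, Gata2 and Tal1. Erg and Fli1 thus changed places, and so did Gata2 and Lyl1. With no value per sample, the order of any neighbours cannot be set against a spread between samples.

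**Figure D1:**
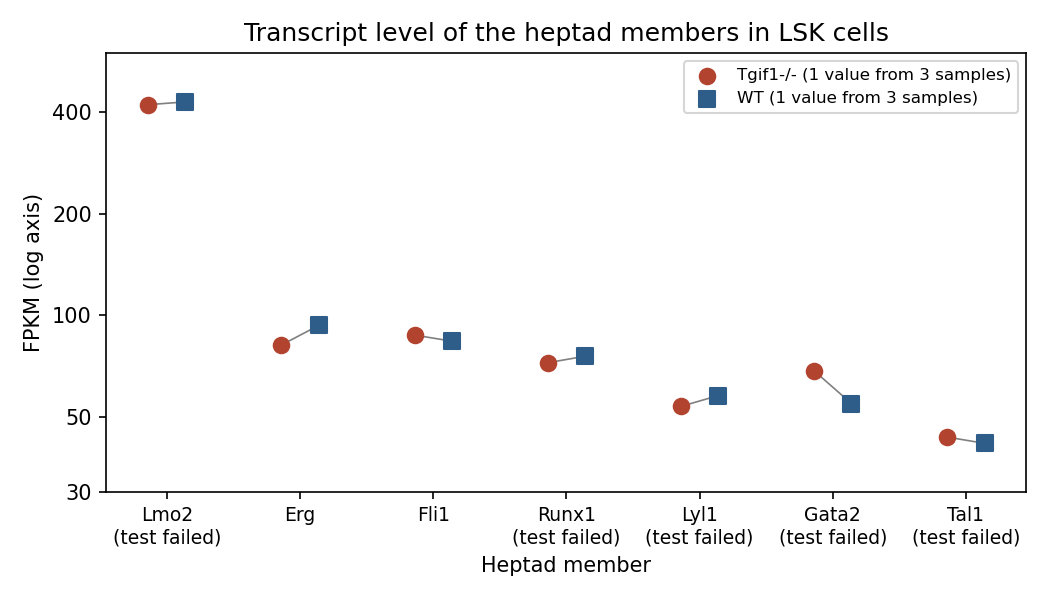
FPKM of each heptad member (log axis), with 1 point per group, circles for Tgif1-/- and squares for WT, and no error bar because the table holds 1 value per group. Lmo2 lies at 422 FPKM in the Tgif1-/- group and 430 FPKM in the WT group, the other members lie between 41.7 and 93.3 FPKM, and the widest gap is that of Gata2 (68.4 FPKM in the Tgif1-/- group and 54.7 FPKM in the WT group).

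Of the Ets factors, Erg, which is required to maintain adult blood stem cells in the mouse, stood at 81.6 FPKM in the Tgif1-/- group and 93.3 FPKM in the WT group. Its log2 ratio, Tgif1-/- over WT here and throughout, was -0.19 with a standard error of 0.08 implied by the deposited test statistic, a 95% interval of -0.35 to -0.04. The authors' deposited table lists p = 0.0147 and q = 0.540 for it. That standard error was smaller than those of all but 5.78% of the 865 tested genes at like expression, whose median was 0.19. With an error floor, which set each error to at least the median of its expression bin (1 of 20), the error of Erg became 0.18 and its p 0.284 in place of the value in the authors' deposited table. The floor can only raise an error, so a call lost under it, here and below, is not shown to be unsound. The gene is ENSMUSG00000040732 on chromosome 16, positions 95580776 to 95808200. Gene positions are the table's own, in a mouse build that the sources used here do not give.

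Fli1, the nearest Ets relative of Erg and a factor of stem cells, megakaryocytes and endothelium, stood at 87.4 FPKM in the Tgif1-/- group and 83.8 FPKM in the WT group. The log2 ratio of Fli1 was 0.06 with an implied standard error of 0.20, so its 95% interval ran from -0.33 to 0.45, or 0.798-fold to 1.36-fold. The authors' deposited table gives it a p of 0.760 and a q of 1.00. The level of Erg divided by that of Fli1 was 0.934 in the Tgif1-/- group and 1.11 in the WT group. Fli1 (ENSMUSG00000016087) lies on chromosome 9, positions 32229793 to 32348974, and Erg and Fli1 each have another Ets gene beside them. Ets1, 94.8 kb from Fli1, stood at 9.55 FPKM in the Tgif1-/- group and 12.1 FPKM in the WT group, and its test failed. Ets2, 115 kb from Erg, stood at 14.7 FPKM in the Tgif1-/- group and 12.3 FPKM in the WT group (p = 0.143 in the authors' deposited table). Both neighbours lay far below their heptad partners in both groups.

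Gata2, which sustains stem cell numbers and is also expressed in mast cells and early megakaryocytes and red cell precursors, had the widest gap. It stood at 68.4 FPKM in the Tgif1-/- group and 54.7 FPKM in the WT group, a ratio of 1.25 and a log2 ratio of 0.32. Its test failed, so the gap has no error. Of the 1873 other genes within 1.5-fold of its level, 26 had a larger log2 ratio, which puts it at percentile 98.6, and the middle 90% of them lay between -0.24 and 0.21. This rank describes the table's values and is not a test. The gene is ENSMUSG00000015053, on chromosome 6 at positions 88143885 to 88157024.

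Markers of mast cells and basophils, which carry Gata2 as well, were higher in the same group. All 9 tested of 12 listed markers were higher in the Tgif1-/- group and 4 were called, Prss34, Mcpt8, Cpa3 and Ms4a2. Prss34 stood at 151 FPKM in the Tgif1-/- group and 51.8 FPKM in the WT group, and Mcpt8 at 77.2 FPKM in the Tgif1-/- group and 28.0 FPKM in the WT group. The summed level of all 12 listed markers was 395 FPKM in the Tgif1-/- group and 161 FPKM in the WT group. Over all tested genes 0.662% were called. At an unadjusted p under 0.05, 1.85% of them were higher in the Tgif1-/- group and 3.55% lower. Of the 4 connective tissue type mast cell proteases listed, Tpsab1 was at 0 in both groups and Mcpt4 was at 0.0811 FPKM in the Tgif1-/- group and 0.207 FPKM in the WT group, both without a test. Cma1 was at 1.34 FPKM in the Tgif1-/- group and 0.728 FPKM in the WT group, and Tpsb2 at 0.776 FPKM in the Tgif1-/- group and 0.698 FPKM in the WT group, neither of them called. The summed megakaryocyte list was 326 FPKM in the Tgif1-/- group and 262 FPKM in the WT group, with 1 of 11 tested markers called higher, Rab27b, a call that ended with the error floor. By unadjusted p under 0.05 there were 3 megakaryocyte markers higher (Rab27b, Pf4 and Itga2b) and 1 lower, Ppbp, a platelet chemokine at 4.61 FPKM in the Tgif1-/- group and 9.54 FPKM in the WT group. The summed erythroid list was 409 FPKM in the Tgif1-/- group and 307 FPKM in the WT group, with none of 12 called by Cuffdiff and 1 higher by its unadjusted p under 0.05. That gene, the carbonic anhydrase Car1, stood at 281 FPKM in the Tgif1-/- group and 187 FPKM in the WT group, and without it, a sum taken after the values were seen, the erythroid list came to 128 FPKM in the Tgif1-/- group and 120 FPKM in the WT group. The part of these mast cell and basophil, megakaryocyte and erythroid values in that of Gata2 was not tested. In bulk samples, a change in the number of cells of a type and a change in RNA per cell cannot be told apart.

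Of the helix-loop-helix pair, Tal1, which sets blood fate in the embryo and serves erythroid and megakaryocyte genes later, stood at 43.5 FPKM in the Tgif1-/- group and 41.7 FPKM in the WT group, a log2 ratio of 0.06. Lyl1, its relative and partial substitute in adult stem cells, stood at 53.7 FPKM in the Tgif1-/- group and 57.8 FPKM in the WT group, a log2 ratio of -0.11. Both ratios lay inside the middle 90% of genes at like expression, at percentile 73.4 for Tal1 and percentile 23.7 for Lyl1. Tal1 (ENSMUSG00000028717) is on chromosome 4, positions 114729031 to 114744360. The position listed for Lyl1 (ENSMUSG00000034041, chromosome 8, positions 87223775 to 87324243) spans 100 kb and is also that of Nfix and G430095P16Rik, so fragments may have been shared out among them. Nfix, a factor of stem cell survival, stood at 70.6 FPKM in the Tgif1-/- group and 94.7 FPKM in the WT group, and its test failed too. Of all 22381 genes, 4401 share a listed position with another gene, so this limit is not particular to the members.

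Lmo2, the bridging protein, stood at 422 FPKM in the Tgif1-/- group and 430 FPKM in the WT group, rank 295 of all genes in the Tgif1-/- group and rank 296 in the WT group. Its log2 ratio of -0.03 became 0.0043 when ratios were centred on the median of tested genes, so it has no fixed direction. Against its complex partner Tal1, Lmo2 was 9.68-fold higher in the Tgif1-/- group and 10.3-fold higher in the WT group. The listed position of Lmo2 (ENSMUSG00000032698, chromosome 2, positions 103798143 to 103903397) is shared with Fbxo3, at 58.5 FPKM in the Tgif1-/- group and 54.5 FPKM in the WT group, and with 4931422A03Rik.

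Runx1, required for the first blood stem cells and later for platelet and lymphoid cells, stood at 72.3 FPKM in the Tgif1-/- group and 75.6 FPKM in the WT group. The log2 ratio of Runx1 was -0.06, at percentile 32.1 of the 1640 genes at like expression. The gene is ENSMUSG00000022952 on chromosome 16, positions 92601712 to 92826311. Gene-level values do not separate its distal and proximal promoters.

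**Figure D2:**
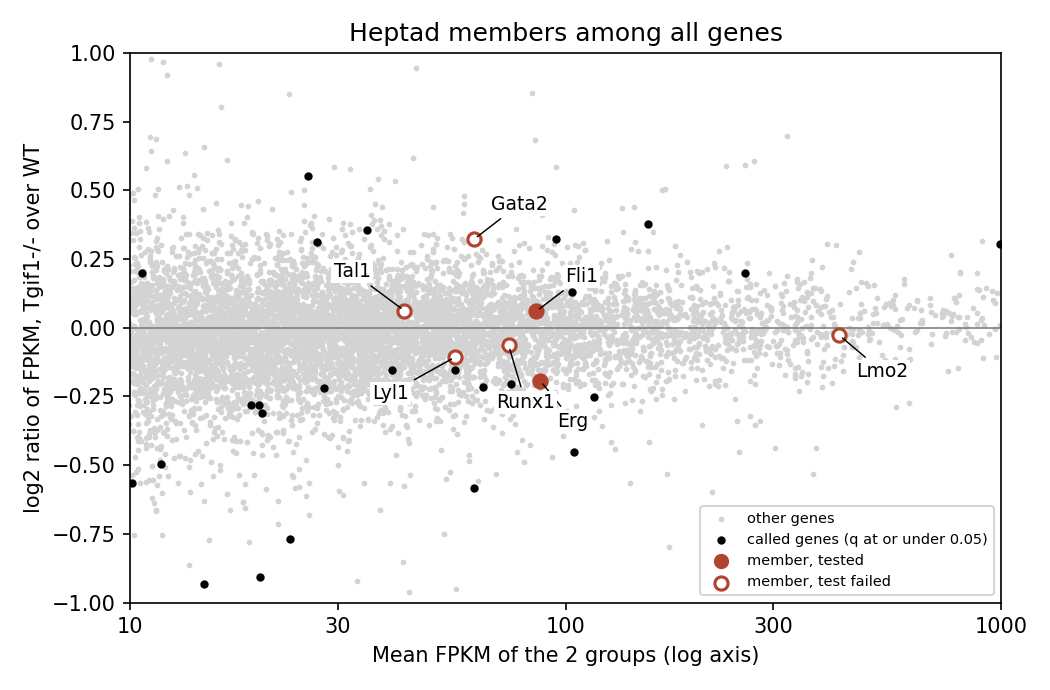
Log2 ratio of FPKM, Tgif1-/- over WT, against the mean FPKM of both groups (log axis), for the 7846 genes within the drawn axes, with 4588 others outside them. Filled circles are members with a completed test and open circles members whose test failed. Black points are called genes, and Gata2 is the member farthest from 0, with Erg next.

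Counted together, 3 members (Gata2, Tal1 and Fli1) had positive log2 ratios and 4 had negative ones, with a median of -0.03, against -0.03 over all tested genes. With centring on the median of tested genes Lmo2 changed sign and the median became 0.0043. Leaving Gata2 aside, no member's log2 ratio exceeded 0.19 in size. The errors of other genes give a typical size that could be seen at these levels, not a limit for each gene. At the median implied standard error of tested genes within 1.5-fold of each member, a ratio of 1.29 to 1.31 was needed for an unadjusted p of 0.05, and 1.59 to 1.64 to be called. The 1.25-fold gap of Gata2 is under both, but its own error is unknown, so whether it could have been called is not known. Genes with smaller errors passed at smaller ratios. Erg had an unadjusted Cuffdiff p under 0.05 at a log2 ratio of -0.19. Tcf4, at 106 FPKM in the Tgif1-/- group and 126 FPKM in the WT group, was called at -0.25.

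The proteins that the heptad factors work with were examined as a group of 19 genes, of which 7 had failed tests. In the Tgif1-/- group 1 of 12 tested partners was called, Tcf4, which fell, and 2 were lower at an unadjusted p under 0.05, Tcf4 and Tcf3, with none higher. Both encode E proteins, the dimer partners of Tal1 and Lyl1. Over all tested genes 0.662% were called, and 3.55% were lower at an unadjusted p under 0.05. Tcf4 stood at 106 FPKM in the Tgif1-/- group and 126 FPKM in the WT group, a log2 ratio of -0.25. Its implied standard error was 0.05, and the authors' deposited table gives it a q of 0.00151. That call ended with the error floor, where its Benjamini-Hochberg value was 1.00. The floor raised the error of Tcf4 to 0.18, and by construction it can only weaken a call that rests on a small error. Tcf3 stood at 66.0 FPKM in the Tgif1-/- group and 83.0 FPKM in the WT group (p = 0.0215 and q = 0.628 in the authors' deposited table). Tcf12, which encodes a further E protein, was at 41.7 FPKM in the Tgif1-/- group and 43.1 FPKM in the WT group, and its test failed.

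B cell markers, whose lineage depends on E proteins, were lower in the same group as Tcf3 and Tcf4. Of 8 tested B cell markers 4 were called, all lower, against 0.662% of all tested genes called in either direction. The summed level of the B cell markers was 58.2 FPKM in the Tgif1-/- group and 120 FPKM in the WT group. Their part in the Tcf3 and Tcf4 values was not tested.

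The remaining partners include the parts that hold the complexes together. Ldb1, the scaffold of Lmo2, stood at 53.9 FPKM in the Tgif1-/- group and 59.3 FPKM in the WT group, and Cbfb, the partner of Runx1, at 140 FPKM in the Tgif1-/- group and 149 FPKM in the WT group. The tests of both failed. Sin3a, a corepressor scaffold with the highest level of the list, stood at 223 FPKM in the Tgif1-/- group and 267 FPKM in the WT group (p = 0.0624 in the authors' deposited table). Ssbp2, which stabilises Ldb1, was at 204 FPKM in the Tgif1-/- group and 215 FPKM in the WT group. The median log2 ratio of the 12 tested partners was -0.17, with 11 below 0 and 1 above, against -0.03 over all tested genes. The 11 include Runx1t1, at 0.579 FPKM in the Tgif1-/- group and 0.925 FPKM in the WT group. The share of all tested genes below 0 was not taken, so that count has no background beside it. Of the partners with failed tests, Cbfa2t3 and Hdac2 lay above 0 and the others below. Cbfa2t3 and another partner, Zfpm1, share a listed position (chromosome 8, positions 122434260 to 126869624), so fragments may have been shared out there too. Over the 18 partners at 1 FPKM or more, failed ones included, the median was -0.10.

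Relatives of the members in the same families gave no call in the Cuffdiff test. Runx2, a factor best known from bone, was expressed above Runx1 in both groups, at 111 FPKM in the Tgif1-/- group and 127 FPKM in the WT group. Runx3 stood at 75.8 FPKM in the Tgif1-/- group and 73.3 FPKM in the WT group. The authors' deposited table gives p = 0.160 for Runx2 and p = 0.828 for Runx3. Gata2 was the highest GATA gene. Gata3, a T cell factor also found in stem cells, stood at 15.0 FPKM in the Tgif1-/- group and 14.8 FPKM in the WT group, and Gata1, the erythroid and megakaryocyte factor, at 7.58 FPKM in the Tgif1-/- group and 5.71 FPKM in the WT group (p = 0.963 for Gata3 and p = 0.247 for Gata1 in the authors' deposited table). Lmo4 stood at 50.9 FPKM in the Tgif1-/- group and 45.0 FPKM in the WT group, and Lmo1 was under 1 FPKM in both groups (p = 0.366 for Lmo4 and p = 0.842 for Lmo1 in the authors' deposited table). The Tal and Lyl class had no tested gene, since Tal2, Nhlh1 and Nhlh2 had too few reads. Of 26 Ets genes 13 were tested, none was called, and Erg was the 1 with an unadjusted p under 0.05. The tests of 7 others failed, and 6 had too few reads. The failed ones include Etv5, at 29.0 FPKM in the Tgif1-/- group and 45.9 FPKM in the WT group, whose log2 ratio of -0.66 was larger in size than that of Gata2 and likewise has no error. Etv6, another Ets gene needed by adult stem cells, had the highest level, 452 FPKM in the Tgif1-/- group and 459 FPKM in the WT group.

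A list of 28 genes known from other work as regulated by 1 or more heptad factors held 16 tested genes. Of these, 2 were called, Ms4a2 and Cpa3, both higher in the Tgif1-/- group and both on the mast cell and basophil list. Ms4a2, an IgE receptor chain, stood at 15.4 FPKM in the Tgif1-/- group and 6.12 FPKM in the WT group. Cpa3, a carboxypeptidase, stood at 115 FPKM in the Tgif1-/- group and 52.4 FPKM in the WT group. The log2 ratio was 1.33 for Ms4a2 (implied standard error 0.26) and 1.13 for Cpa3 (implied standard error 0.22). At an unadjusted p under 0.05 there were 5 higher and none lower, where 1.85% of all tested genes were higher and 3.55% lower. The further 3 were Hdc, which makes histamine, at 16.2 FPKM in the Tgif1-/- group and 10.4 FPKM in the WT group, Pf4, platelet factor, at 108 FPKM in the Tgif1-/- group and 59.7 FPKM in the WT group, and Itga2b, a platelet integrin, at 54.0 FPKM in the Tgif1-/- group and 35.2 FPKM in the WT group. All 5 also stand in the mast cell and basophil list or in the megakaryocyte list. The lists were chosen with earlier results of these data known, and 0.662% of all tested genes were called.

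Regulated genes of stem and progenitor cells lay closer to 0 and many tests failed. Hhex, a homeobox gene with a heptad-bound enhancer, stood at 52.0 FPKM in the Tgif1-/- group and 57.1 FPKM in the WT group (p = 0.414 in the authors' deposited table). Spi1, listed as Sfpi1, which encodes PU.1 and is a target of Runx1, stood at 158 FPKM in the Tgif1-/- group and 164 FPKM in the WT group (p = 0.650 in the authors' deposited table). Gfi1b, a repressor, stood at 94.98 FPKM in the Tgif1-/- group and 86.9 FPKM in the WT group, and its test failed. Mpo, a neutrophil granule enzyme with the highest level of the list, stood at 3055 FPKM in the Tgif1-/- group and 3289 FPKM in the WT group, and its test failed. Over the 26 genes at 1 FPKM or more the median log2 ratio was 0.07, and over the 16 tested it was 0.48, against -0.03 over all tested genes.

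**Figure D3:**
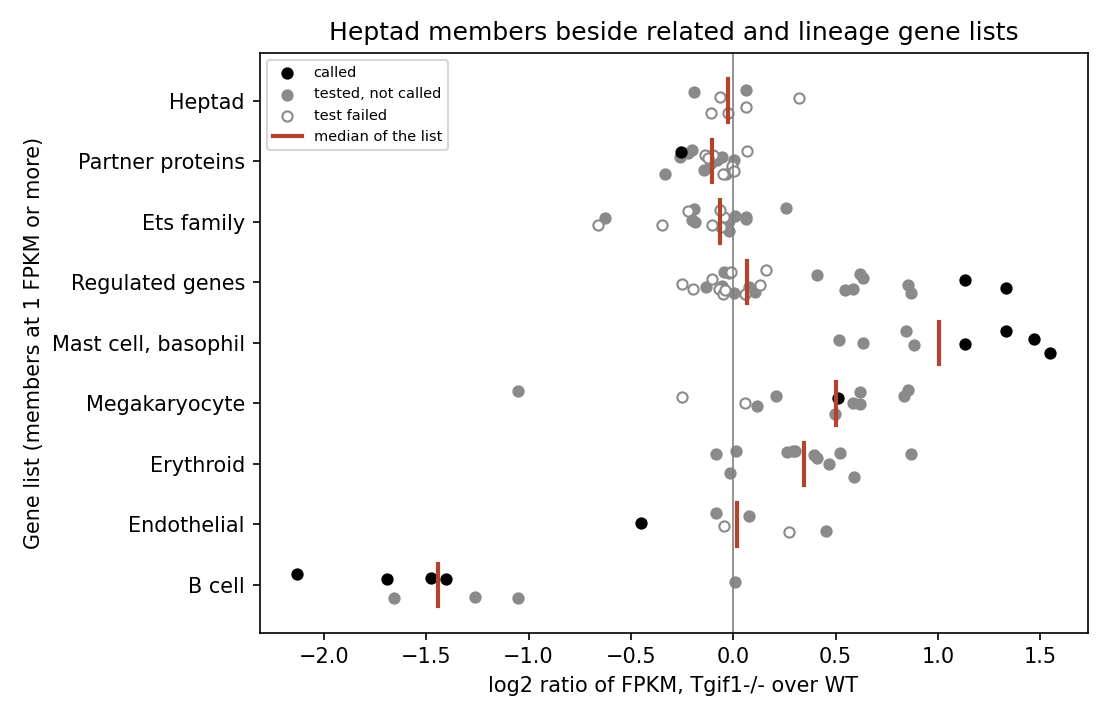
Log2 ratio of FPKM, Tgif1-/- over WT, for the members of each gene list at 1 FPKM or more in a group, with 1 point per gene and the list median as a vertical bar. The heptad lies between -0.19 and 0.32 with a median of -0.03, the mast cell and basophil list lies above 0 throughout, and 7 of 8 B cell markers lie below 0.

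The labelled cell type was checked against its sorting markers. Kit stood at 193 FPKM in the Tgif1-/- group and 202 FPKM in the WT group, and Ly6a, which encodes Sca-1, at 120 FPKM in the Tgif1-/- group and 88.9 FPKM in the WT group (p = 0.0536 in the authors' deposited table). Of 9 lineage markers, Itgam alone stood above 4 FPKM, at 35.4 FPKM in the Tgif1-/- group and 34.0 FPKM in the WT group. Endothelium also expresses most heptad genes. Of the 12 endothelial markers, Cdh5, Kdr and Cldn5 were under 0.2 FPKM in both groups, and Sox17 was listed at 0 in the Tgif1-/- group and at 0.083 FPKM in the WT group. Others were expressed, with Emcn at 20.7 FPKM in the Tgif1-/- group and 21.97 FPKM in the WT group, Robo4 at 8.60 FPKM in the Tgif1-/- group and 8.86 FPKM in the WT group, Tek at 7.96 FPKM in the Tgif1-/- group and 7.55 FPKM in the WT group, and Esam at 6.96 FPKM in the Tgif1-/- group and 5.09 FPKM in the WT group. The part of endothelial cells in the heptad values was not tested. The endothelial list summed to 188 FPKM in the Tgif1-/- group and 210 FPKM in the WT group, most of it Egfl7 and Pecam1, and 1 of 5 tested was called, Egfl7, which fell. Egfl7 was at 88.3 FPKM in the Tgif1-/- group and 121 FPKM in the WT group, and its call ended with the error floor, where its Benjamini-Hochberg value was 1.00. By construction the floor can only raise an error, here from 0.07 to 0.18. The share called over all tested genes was 0.662%. Tgif1 itself stood at 88.6 FPKM in the Tgif1-/- group and 71.5 FPKM in the WT group with a failed test, so every direction here is one between groups as labelled.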

How the data were processed

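RNA of LSK cells (about 200 ng per the labels' protocols) was sequenced in 6 samples. TopHat and Cuffdiff, without versions, are named in the submitters' processing notes, which also name hg19, a human build, although the identifiers are mouse. FPKM values, 1 per group, were computed by the authors, and the table's log2 ratio, test score (the Cuffdiff statistic), p-value and q-value were deposited with them, per the file headers. The deposited log2 ratio has WT on top and was recomputed from FPKM with Tgif1-/- on top. Depth per sample is unknown. None of the 7 members has its GRCm38 position in RefSeq, so table positions are of another build (starts count from 1).

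The implied standard error is the log2 ratio divided by the test statistic, an error of the authors' model. The error floor raised it to the median of its expression bin (20 bins, 10683 tested genes with values above 0 in both groups) and adjusted p by Benjamini-Hochberg. The floor was run on data simulated with the implied errors taken as true, so that run cannot show whether the floor suits these data. Like expression means within 1.5-fold of a member's mean FPKM. Members, lists and tests were chosen with earlier results of these data known. Named genes were the members, their highest relatives and, per list, genes at p under 0.05 and 1 FPKM, or else the 2 lowest p, plus the highest level; a few partners, targets and neighbours with known roles were added after their values were seen. Gfi1 is not analysed here. Python 3.11.15, pandas 2.3.3, numpy 2.4.6, scipy 1.17.1 and matplotlib 3.10.9 were used.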

Additional observations from a re-analysis of the deposited data

How the results depend on the processing

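No member was called at q thresholds of 0.01 or 0.1, with the error floor, or over genes at 1 FPKM or more, and 5 of 7 could not be called under any of them because their tests failed. The count of members at an unadjusted p under 0.05 went to 0 with the error floor, against 1 (Erg), by construction of the floor. Calls over all genes numbered 39 at q 0.01, 99 at q 0.1, 21 with the error floor and 66 over genes at 1 FPKM or more, against 71. The median log2 ratio of the members was 0.0043 after centring on the median of tested genes, against -0.03, and -0.07 over the 2 tested members. Pseudocounts of 0.1 and 1 kept the sign of all 7 members, and centring changed that of Lmo2. Without the failed genes at like expression, an alternative added after seeing the data, Gata2 stood at percentile 98.4 in place of 98.6. No paired analysis was possible because the table holds 1 value per group and the groups share no replicate number. Leaving out single samples could not be done for the same reason, and the unknown depth gives no counting error.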
